A study of Homo sapiens with 4 samples.

Results

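RES-A is an enzalutamide-resistant derivative of LNCaP, a human prostate cancer cell line that depends on androgen, and its transcriptome was set against that of the parental line by single-cell RNA sequencing. The members were the cells of 2 of the 4 libraries of the series that held at least 1500 genes, at least 5000 unique molecular identifiers (UMIs, each standing for 1 captured mRNA molecule) and under 20% UMIs from mitochondrially encoded genes. This kept 2019 of 2358 barcodes in the LNCaP library and 4629 of 5156 in the RES-A library, 6648 of the 15452 cells kept across the series. The LNCaP cells had received 0.1% DMSO, the vehicle, for 48 h, whereas the RES-A cells had been selected over months of passaging in increasing enzalutamide and were kept in 10 µM of it. The difference between the lines and the effect of the drug in the medium therefore cannot be told apart in this comparison. The other libraries, LNCaP given 10 µM enzalutamide for 48 h (LNCaP-ENZ48) and the second resistant line RES-B, also kept in 10 µM, are quoted beside it, and every ratio uses the same LNCaP library. RES-B had been selected differently, by months of continuous treatment with another anti-androgen and not in increasing enzalutamide.

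Androgen acts through the androgen receptor, a nuclear receptor that binds DNA once it holds its hormone and switches on genes of the prostate luminal cell, among them the kallikrein proteases. Enzalutamide occupies the receptor and keeps it from working as a transcription factor. Cells that grow in its presence may keep, lose or bypass that gene programme, and the comparison addresses how the resistant line's transcriptome differs from that of the line it came from.

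UMIs were summed per gene and library and scaled to the library's total, giving CPM (counts per 1e6 UMIs of that library). With 1 library a side there is no replicate check, no p-value can be given, and intervals are 95% counting intervals (exact Poisson for a level, exact binomial for a ratio or a share of cells), which cover counting error alone. The totals were alike, 55696198 UMIs in LNCaP and 58657527 in RES-A, but they came from fewer and deeper cells in LNCaP, with a median of 26502 UMIs per cell against 12164 in RES-A. A median of 4794 genes was detected per LNCaP cell and 3179 per RES-A cell, and 1743 and 1791 after random thinning of the cells to 5000 UMIs each. The median share of mitochondrially encoded UMIs was 9.72% and 10.4%, and both libraries shared 2 cell barcodes.

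Markers of the label were checked first. Of 10 luminal markers all were detected in both libraries, with a summed level of 2703 CPM in LNCaP and 1457 CPM in RES-A, though KLK3 rested on 2 UMIs and KLK2 on 5 in RES-A. The basal keratin KRT5, the neuroendocrine granule protein CHGA and the pan-leukocyte gene PTPRC had no UMI in either library, and 3 immune markers summed to 0 CPM in LNCaP and 0.102 CPM in RES-A. Other markers of these types were detected at low levels. The neuroendocrine marker SYP had 4.33 CPM in LNCaP and 3.72 CPM in RES-A, and the basal keratin KRT14 had 17 and 2 UMIs. The epithelial keratins were retained, KRT18 at 444 CPM in LNCaP and 637 CPM in RES-A and KRT8 at 170 and 212 CPM. Both libraries thus carried the luminal epithelial markers of the parental line, with the exceptions among androgen-driven genes described next, and VIM was the one mesenchymal marker of 3 that stood high in RES-A.

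Most genes lay close to the diagonal. Of 7974 measured genes, those that reached 10 CPM in LNCaP, in RES-A or in both, 5929 (74.4%) were within 1.5-fold and the median log2 ratio of RES-A over LNCaP was 0.02. At least 2-fold higher in RES-A were 374 genes, 4.69% of those measured, and at least 2-fold lower were 403 genes, 5.05%. These shares are the background for every gene group below. Ratios of at least 16-fold were found for 33 genes in the higher and 46 in the lower direction.

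**Figure D1:**
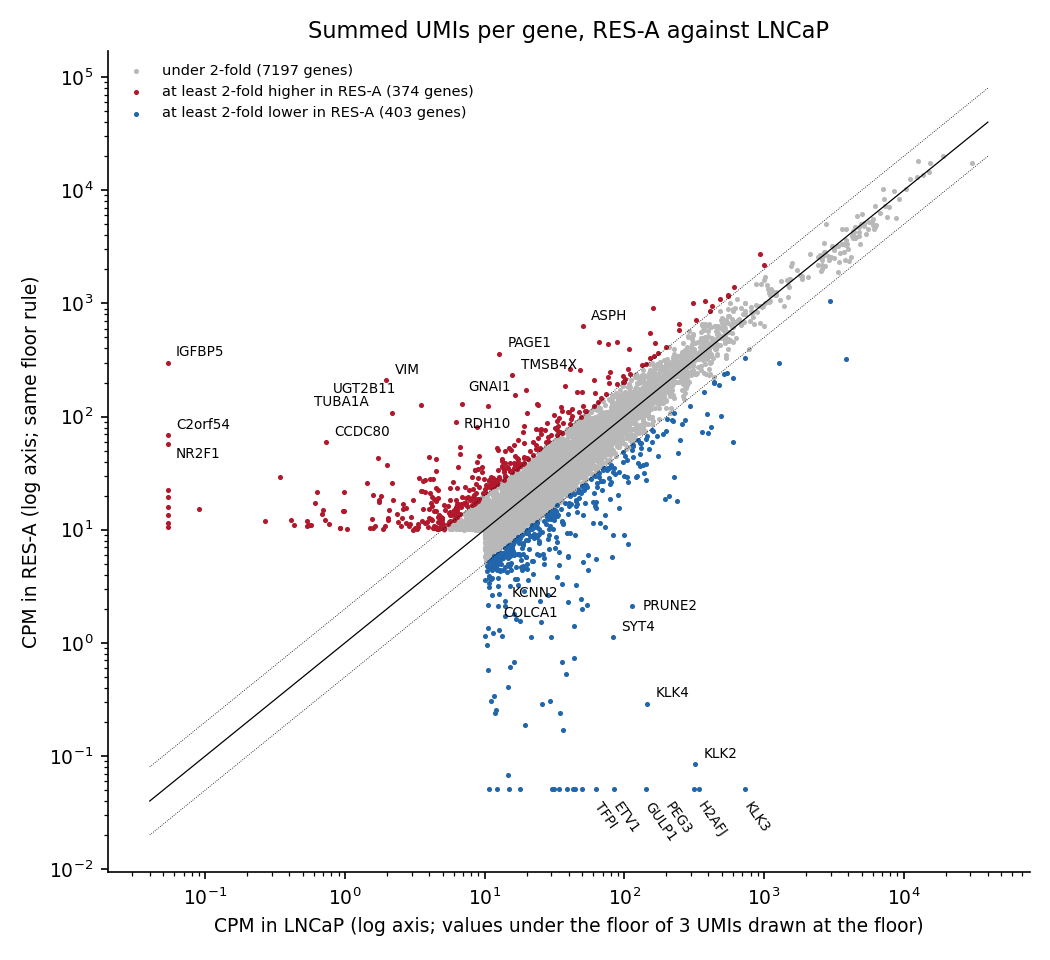
Each point is 1 of the 7974 measured genes, with its CPM in LNCaP on the horizontal and in RES-A on the vertical axis, both logarithmic. The solid line marks equal levels and the dotted lines 2-fold. Values under the floor of 3 UMIs per library are drawn at the floor, and the named points are the 12 highest and 12 lowest ratios, from IGFBP5 at the upper left to KLK3 at the lower right.

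The kallikreins KLK3, KLK2 and KLK4, secreted proteases of which KLK3 is prostate-specific antigen, lay at the extreme low end. Their genes are neighbours on chromosome 19 (GRCh38, GENCODE 44), KLK3 at chr19:50854915-50860764, KLK2 at chr19:50861568-50880567 and KLK4 at chr19:50906351-50911395. The 250 bases before the RefSeq start of each are printed here because androgen-driven transcription of KLK3 and KLK2 is known to use an androgen response element close to the start (RefSeq, GRCh38.p14, chr19:50854665-50854914 on the plus strand, chr19:50873189-50873438 on the plus strand and chr19:50911396-50911645 on the minus strand). Capitals mark a match to a relaxed androgen response element, the half-site GNACA, then 4 bases of any kind, then GTNC, searched on both strands.
KLK3: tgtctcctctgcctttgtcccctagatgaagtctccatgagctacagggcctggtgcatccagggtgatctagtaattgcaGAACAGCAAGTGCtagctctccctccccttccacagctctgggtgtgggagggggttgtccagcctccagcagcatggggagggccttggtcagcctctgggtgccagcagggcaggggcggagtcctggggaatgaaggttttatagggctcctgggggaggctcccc
KLK2: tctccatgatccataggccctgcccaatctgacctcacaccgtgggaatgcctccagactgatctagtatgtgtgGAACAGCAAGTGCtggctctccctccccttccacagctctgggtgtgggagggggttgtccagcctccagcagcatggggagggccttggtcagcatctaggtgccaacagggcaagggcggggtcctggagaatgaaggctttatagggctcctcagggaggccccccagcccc
KLK4: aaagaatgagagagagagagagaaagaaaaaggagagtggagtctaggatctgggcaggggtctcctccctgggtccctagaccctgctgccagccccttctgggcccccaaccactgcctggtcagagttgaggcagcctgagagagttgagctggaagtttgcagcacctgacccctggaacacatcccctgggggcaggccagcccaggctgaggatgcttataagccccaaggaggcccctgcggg

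KLK3 and KLK2 held the same 13 letters at the match, 169 and 175 bases before the start, and with a shift of 6 bases 185 of 244 bases (75.8%) were identical between them. KLK4 held no match in this window and was identical to KLK3 at 32.5% of bases. Both KLK3 and KLK2 also held TATAAA on 1 of the strands, KLK2 held CCAAT, and KLK4 held neither. The match occurred in 2.19% of the 34961 promoters of 300 bases in the RefSeq table outside chromosomes 8 and Y, TATAAA in 11.5% and CCAAT in 34.6%. Promoters of chromosomes 8 and Y were left out of every promoter count here. The 34961 hold every remaining entry, whereas the gene sets below hold 1 promoter per gene symbol. Among the 315 promoters found for genes at least 2-fold lower in RES-A, kallikreins included, 9 (2.86%) held the match, beside 1.69% of the 6326 promoters of measured genes. Of 22 promoters found for the 30 measured androgen-induced genes other than kallikreins, 1 held the match, 0 held TATAAA and 11 held CCAAT. For the 15 of these genes at least 2-fold lower in RES-A, 9 promoters were found and 0 held the match. These are letter matches and say nothing on binding.

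KLK3 was read at 733 CPM in LNCaP (95% counting interval 726 to 740), 93.8 CPM in LNCaP-ENZ48, 30.4 CPM in RES-B and 0.0341 CPM in RES-A, the last from 2 UMIs in the whole library against 40807 in LNCaP. The log2 ratio of RES-A over LNCaP was -14.39 (interval -17.44 to -12.54). KLK2 had 321 CPM in LNCaP, 26.2 CPM in LNCaP-ENZ48, 23.2 CPM in RES-B and 0.0852 CPM in RES-A, from 5 UMIs, and KLK4 had 146, 34.6, 64.9 and 0.29 CPM in the same order. RES-A was thus the lowest of the 4 libraries for each of the 3 genes, by log2 ratios of -11.88 for KLK2 and -8.97 for KLK4 against LNCaP. In cells thinned to 5000 UMIs, KLK3 was seen in 53.6% of LNCaP cells (51.4% to 55.8%) and in 1 of 4629 RES-A cells, 0.0216%, and KLK4 in 46.4% and 0.108%. The 50 measured genes nearest to KLK3 had a median log2 ratio of -0.11, although C19orf48, singled out after its values were seen, was also low, with 419 CPM in LNCaP and 80.8 CPM in RES-A.

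Other androgen-induced genes were lower as well, but less uniformly. Of 48 listed genes 30 were measured, 15 were at least 2-fold lower (against 5.05% of all measured genes), 0 were 2-fold higher, 28 had a ratio below 0, and the median log2 ratio was -0.99. HPGD, the enzyme that inactivates prostaglandins, had 12.2 CPM in LNCaP and no UMI in RES-A, at least 239-fold lower at a floor of 3 UMIs per library. SLC45A3, the prostate membrane protein prostein, had 35.6 CPM in LNCaP, 7.04 CPM in LNCaP-ENZ48, 0.641 CPM in RES-B and 0.682 CPM in RES-A, a log2 ratio of -5.71 (-6.20 to -5.25) for RES-A. Both resistant lines stood below the LNCaP library given the drug for 48 h for SLC45A3.

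The retinaldehyde-oxidising enzyme ALDH1A3 had 19.3 CPM in LNCaP and 0.188 CPM in RES-A. The nucleotide exporter ABCC4 had 44.8 CPM in LNCaP, 26.2 CPM in LNCaP-ENZ48, 5.03 CPM in RES-B and 3.27 CPM in RES-A. FKBP5, a co-chaperone of steroid receptors induced by androgens and glucocorticoids, differed little, with 19.7 CPM in LNCaP, 10.8 CPM in LNCaP-ENZ48 and 17.9 CPM in RES-A. The group thus ran from transcripts with no UMI left to transcripts near the parental level.

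Transcription factors of luminal cells leaned to the low side, with exceptions. Of 14 measured genes in this list 3 were at least 2-fold lower (21.4%, against 5.05% of all measured genes). At least 2-fold higher was 1 gene (7.14%, against 4.69%), 11 had a ratio below 0, and the median log2 ratio was -0.30. The ETS-family factor EHF had 251 CPM in LNCaP and 61.8 CPM in RES-A and its relative SPDEF 84.9 and 35.1 CPM, while the pioneer factor FOXA1 had 157 and 98.6 CPM and HOXB13, the posterior homeobox gene of prostate, 135 and 91.7 CPM. FOXA1 and HOXB13 were thus within 2-fold, with log2 ratios of -0.68 and -0.56, and XBP1, a factor of secretory cells, was higher at 286 CPM against 134 CPM.

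Of 12 measured luminal epithelial markers 1 was at least 2-fold lower, the tight junction protein TJP1 with 143 CPM in LNCaP and 37.7 CPM in RES-A, and 0 were higher. The adhesion proteins EPCAM (101.2 and 151 CPM) and CDH1 (111 and 123 CPM) had log2 ratios of 0.58 and 0.15. The list median was -0.15. The epithelial markers outside the androgen programme therefore lay near their parental levels in the RES-A library.

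**Figure D2:**
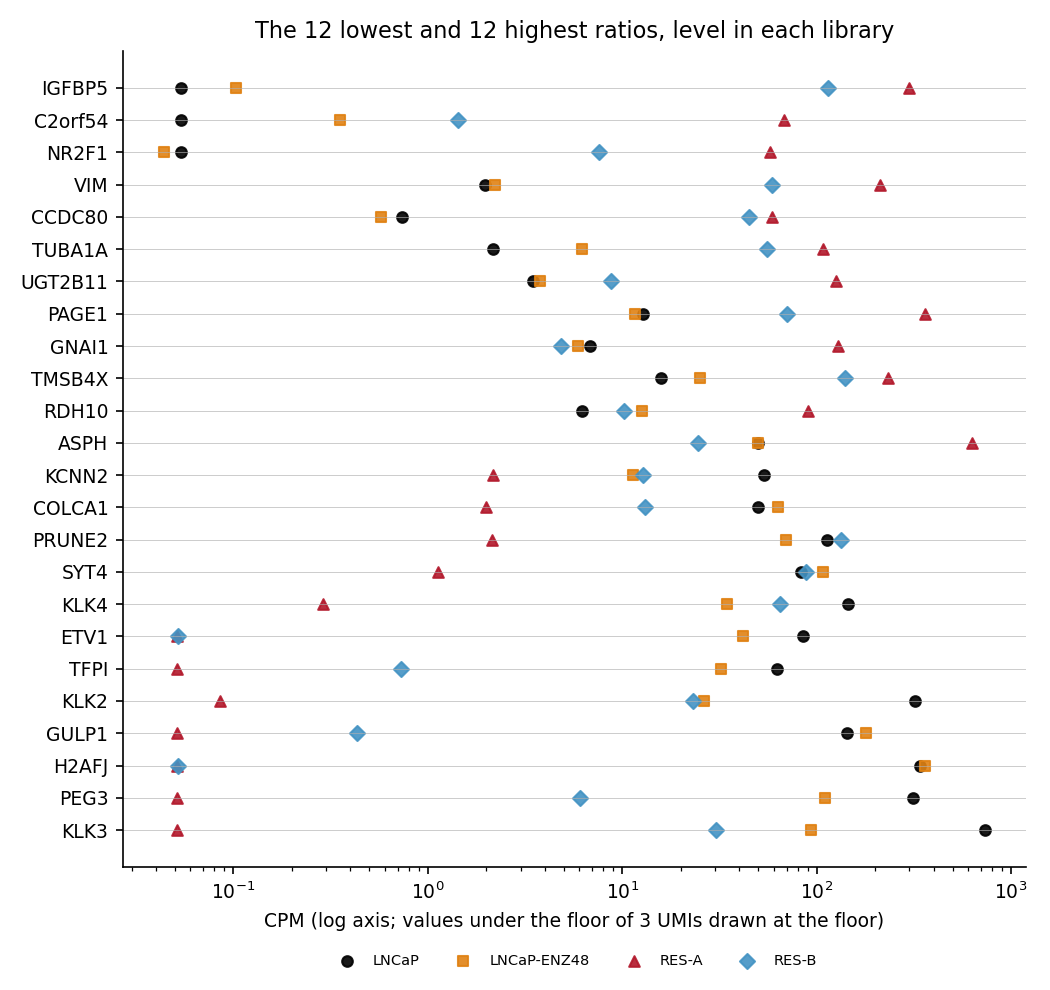
CPM on a logarithmic axis in the 4 libraries for the 12 genes with the lowest and the 12 with the highest ratio of RES-A over LNCaP among genes that reached 50 CPM in LNCaP, in RES-A or in both. RES-A (triangles) lies at the right end for the upper 12 genes and at or near the left end for the lower 12, and RES-B (diamonds) lies near LNCaP for SYT4, PRUNE2 and GNAI1.

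Among the remaining genes at the low end, 5 had at most 2 UMIs in RES-A. PEG3, an imprinted zinc finger gene on the same chromosome as the kallikreins at chr19:56810077-56840728, had 314 CPM in LNCaP, 110 CPM in LNCaP-ENZ48, 6.05 CPM in RES-B and 0.017 CPM in RES-A, from 1 UMI. H2AFJ, a histone H2A variant gene at chr12:14774405-14778002, had 341 CPM in LNCaP, 359 CPM in LNCaP-ENZ48 and no UMI in RES-A or RES-B. Set to the floor of 3 UMIs, the RES-A level was 6662-fold lower, and the exact interval put the log2 ratio at -12.40 or below. H2AFJ was seen in 74.0% of thinned LNCaP cells and in 0 of 4629 RES-A cells, which allows a share of cells with a UMI of up to 0.0648% at the floor of 3 counts and 0.0797% by the exact binomial interval, and the 50 nearest measured genes had a median log2 ratio of 0.25.

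GULP1, an adaptor protein of phagocytosis, had 143 CPM in LNCaP, 179 CPM in LNCaP-ENZ48, 0.433 CPM in RES-B and 0.0341 CPM in RES-A. TFPI, the inhibitor of the tissue factor pathway of coagulation, had 62.3, 32.1, 0.728 and 0.0341 CPM in the same order. GULP1 and TFPI lie 725.9 kb apart on chromosome 2, and the 50 measured genes around them had a median log2 ratio of 0.03. ETV1, the ETS factor that LNCaP cells are known to express through a rearrangement, had 84.9 CPM in LNCaP, 42.0 CPM in LNCaP-ENZ48 and no UMI in either resistant library.

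SYT4 and PRUNE2 were low in RES-A alone of the resistant lines. SYT4, a synaptotagmin of vesicle release, had 83.0 CPM in LNCaP and 88.3 CPM in RES-B but 1.13 CPM in RES-A, and PRUNE2 had 113, 134 and 2.13 CPM in the same order. SYT4 was carried by few parental cells, 12.3% of thinned LNCaP cells, against 37.3% for PRUNE2 at a similar summed level. COLCA1 had 50.1 CPM in LNCaP, 63.4 CPM in LNCaP-ENZ48, 13.1 CPM in RES-B and 1.99 CPM in RES-A, and the calcium-activated potassium channel gene KCNN2 had 53.6, 11.4, 12.8 and 2.17 CPM in the same order. COLCA1 and KCNN2 were thus low in both resistant lines, and KCNN2 also after 48 h of drug.

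At the high end, 3 genes went from at most 2 UMIs in LNCaP to between 3376 and 17604 in RES-A. IGFBP5, a secreted binding protein of insulin-like growth factors at chr2:216672105-216695549, had 1 UMI in LNCaP and 17604 in RES-A, 0.018 and 300 CPM, with 0.103 CPM in LNCaP-ENZ48 and 114 CPM in RES-B. Its log2 ratio was 14.03 (11.55 to 19.33). NR2F1, an orphan nuclear receptor of development, had 0.0359 CPM in LNCaP against 57.6 CPM in RES-A, with 7.56 CPM in RES-B, and C2orf54 had 0.0359, 68.3 and 1.44 CPM. IGFBP5 was thus high in both resistant lines, whereas the RES-B level of C2orf54 stayed far below that of RES-A.

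These transcripts were not carried by every RES-A cell at this depth. In thinned cells IGFBP5 was seen in 46.2% of RES-A cells (44.7% to 47.6%), NR2F1 in 23.1% and C2orf54 in 22.7%, against 0, 0 and 1 of 2019 LNCaP cells. ASPH and PAGE1 were the most widespread of the 12 highest genes, in 94.0% and 83.2% of RES-A cells and in 20.6% and 5.30% of LNCaP cells. Without thinning, IGFBP5 was seen in 61.7% of RES-A cells and GNAI1, with a lower level of 129 CPM, in 66.3%. IGFBP5 was thus spread less evenly over RES-A cells than GNAI1, and the reason was not tested. A cell with 5000 UMIs that lacks a transcript of 58 to 300 CPM may still express it, and free RNA can place a UMI in a cell that does not, a background that was not estimated here.

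**Figure D3:**
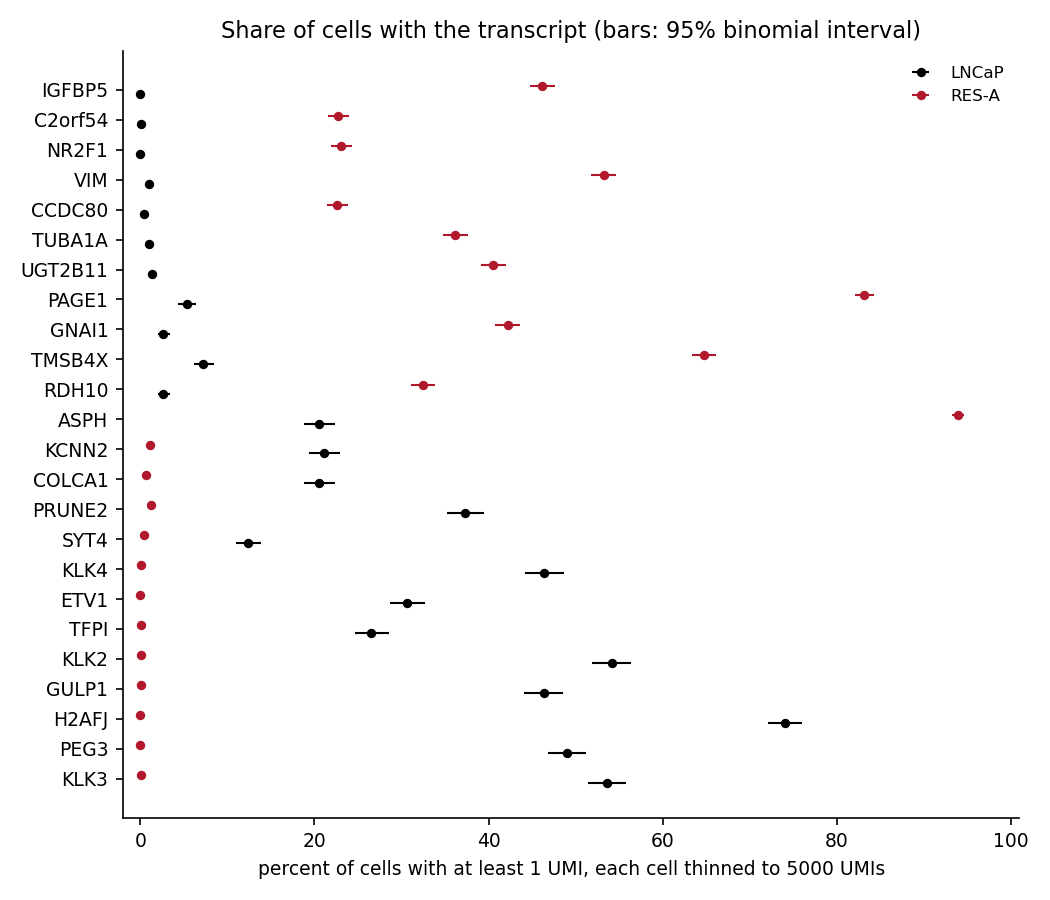
Share of cells with at least 1 UMI for the 12 lowest and 12 highest genes, in LNCaP (black) and RES-A (red), each cell thinned to 5000 UMIs, with 95% exact binomial intervals as bars. For the lower 12 genes the RES-A share is at most 1.17%, and for the upper 12 the LNCaP share runs from 0% to 20.6%.

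VIM, the intermediate filament protein of mesenchymal cells, had 1.98 CPM in LNCaP (1.62 to 2.38), 2.22 CPM in LNCaP-ENZ48, 58.6 CPM in RES-B and 211 CPM in RES-A (207 to 215). VIM was seen in 0.991% of LNCaP and 53.2% of RES-A cells. LGALS1, a galectin abundant in mesenchymal cells, had 1.72 CPM in LNCaP, 0.745 CPM in RES-B and 43.2 CPM in RES-A. The other measured members of the mesenchymal list went the opposite way, TWIST1, a factor of epithelial-mesenchymal transition, with 11.1 and 0.307 CPM and the matrix protein FN1 with 22.9 and 8.93 CPM. Of 22 listed mesenchymal genes 4 were measured, 2 of them higher and 2 lower, and COL1A2 had no UMI in either library, so the list did not move as a group.

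Genes of the cytoskeleton and of cell surface signalling were among the other high ones. TUBA1A, an alpha-tubulin, had 2.15 CPM in LNCaP against 108 CPM in RES-A, with 55.3 CPM in RES-B, and TMSB4X, the actin-sequestering thymosin beta 4, had 15.8, 231 and 140 CPM. The secreted protein gene CCDC80 had 0.736, 59.3 and 44.7 CPM. These 3 genes were high in both resistant lines. Reads of tubulin and thymosin genes can be shared with near-identical copies, which makes their levels uncertain.

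GNAI1, an inhibitory G protein alpha subunit, had 6.86 CPM in LNCaP against 129 CPM in RES-A, with 4.82 CPM in RES-B. RDH10, which oxidises retinol to retinal, had 6.19, 90.4 and 10.3 CPM, and PAGE1, a cancer-testis antigen of the X chromosome, had 12.7, 360 and 70.4 CPM. ASPH, the aspartyl beta-hydroxylase of the endoplasmic reticulum, had 50.2 CPM in LNCaP, 49.7 CPM in LNCaP-ENZ48, 24.5 CPM in RES-B and 628 CPM in RES-A. GNAI1 and ASPH were thus high in RES-A and below the LNCaP level in RES-B.

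The UGT2B enzymes were high in RES-A, while enzymes that convert steroids were mixed. Some UGT2B enzymes attach glucuronic acid to androgens and so inactivate them. Of 7 listed UGT2B genes 5 were measured, 4 were at least 2-fold higher in RES-A (80.0%, against 4.69% of all measured genes), and the median log2 ratio was 4.89. UGT2B11 had 3.48 CPM in LNCaP, 3.77 CPM in LNCaP-ENZ48, 8.75 CPM in RES-B and 126 CPM in RES-A, and UGT2B15 had 10.6, 33.6, 25.2 and 123 CPM in the same order. UGT2B10 had 0.341 and 29.2 CPM in LNCaP and RES-A, and UGT2B17 21.5 and 24.96 CPM. The family lies in 1 cluster on chromosome 4 and its members are near-identical in sequence, so the split of reads among them is uncertain, but their summed level was 36.6 CPM in LNCaP, 65.6 CPM in LNCaP-ENZ48, 41.8 CPM in RES-B and 319 CPM in RES-A.

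AKR1C3, which reduces androstenedione to testosterone, had 0.575 CPM in LNCaP, 11.1 CPM in RES-A (10.2 to 11.96) and 23.6 CPM in RES-B. HSD3B7 had 13.4 and 36.7 CPM in LNCaP and RES-A, HSD17B1, which reduces estrone to estradiol, 16.1 and 34.9 CPM, and HSD17B12, an enzyme of fatty acid elongation, 33.8 and 6.41 CPM. Of 13 measured steroid-converting enzymes 3 were higher by 2-fold (23.1%, against 4.69% of all measured genes). Lower by 2-fold was 1 (7.69%, against 5.05%), and the median was 0.30. The levels of AKR1C3 and HSD3B7 in RES-A were thus above those of the parental line, at low absolute values.

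Targets of the glucocorticoid receptor, which mediates the response to stress steroids, were mostly low. Of 11 measured genes 7 were at least 2-fold lower (63.6%, against 5.05% of all measured genes) and 0 higher, with a median of -1.36. Of the 11, 4 also stand in other lists, so this group is not separate from those. ZBTB16, a zinc finger factor induced by steroids, had 43.1 CPM in LNCaP, 9.21 CPM in LNCaP-ENZ48, 0.381 CPM in RES-B and 0.017 CPM in RES-A, from 1 UMI. CEBPD had 29.7, 21.4, 4.96 and 1.13 CPM in the same order. TSC22D3, the glucocorticoid-induced leucine zipper, had 66.8 CPM in LNCaP, 68.6 CPM in LNCaP-ENZ48, 75.9 CPM in RES-B and 11.5 CPM in RES-A, so that RES-A alone of the 4 libraries was low. DUSP1 and FKBP5, with log2 ratios of 0.04 and -0.14, did not share the low levels.

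Metallothioneins, small proteins that bind zinc and copper, were low in RES-A. MT2A had 1283 CPM in LNCaP, 1010 CPM in LNCaP-ENZ48, 1912 CPM in RES-B and 296 CPM in RES-A, and MT1X had 397, 273, 523 and 71.9 CPM in the same order. MT1G, with 54.5, 72.2, 0.364 and 4.40 CPM, was low in both resistant lines. RES-A and RES-B thus stood on opposite sides of LNCaP for MT2A and MT1X. Of 19 measured metallothioneins and zinc transporters 5 were lower by 2-fold (26.3%, against 5.05% of all measured genes). Higher was 1 (5.26%, near the 4.69% of all), the zinc exporter SLC30A1 with 6.01 and 13.8 CPM, and the list median was -0.43.

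The heat shock genes past 2-fold were all on the high side. Of 23 measured heat shock genes 5 were at least 2-fold higher (21.7%) and 0 lower, 21 had a ratio above 0, and the median log2 ratio was 0.57. HSP90AA1, the inducible cytosolic HSP90 that holds steroid receptors in a ligand-binding state, had 931 CPM in LNCaP, 1026 CPM in LNCaP-ENZ48, 2509 CPM in RES-B and 2727 CPM in RES-A. HSPA8, the constitutive HSP70, had 606, 632, 946 and 1405 CPM in the same order, and FKBP4, the HSP90 partner of steroid receptors, 110, 115, 204 and 237 CPM. For these chaperones both resistant lines stood above both LNCaP libraries. The small heat shock protein CRYAB had 0.611 CPM in LNCaP against 17.05 CPM in RES-A, with 27.4 CPM in RES-B, and HSPA4L, with 11.2 and 25.4 CPM in LNCaP and RES-A, stayed at 10.3 CPM in RES-B. Of 26 measured ER chaperone and unfolded protein genes 1 was at least 2-fold higher, XBP1, and 1 lower, the stress sensor ERN1 with a log2 ratio of -1.09, while 18 had a ratio below 0 and the median was -0.18.

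**Figure D4:**
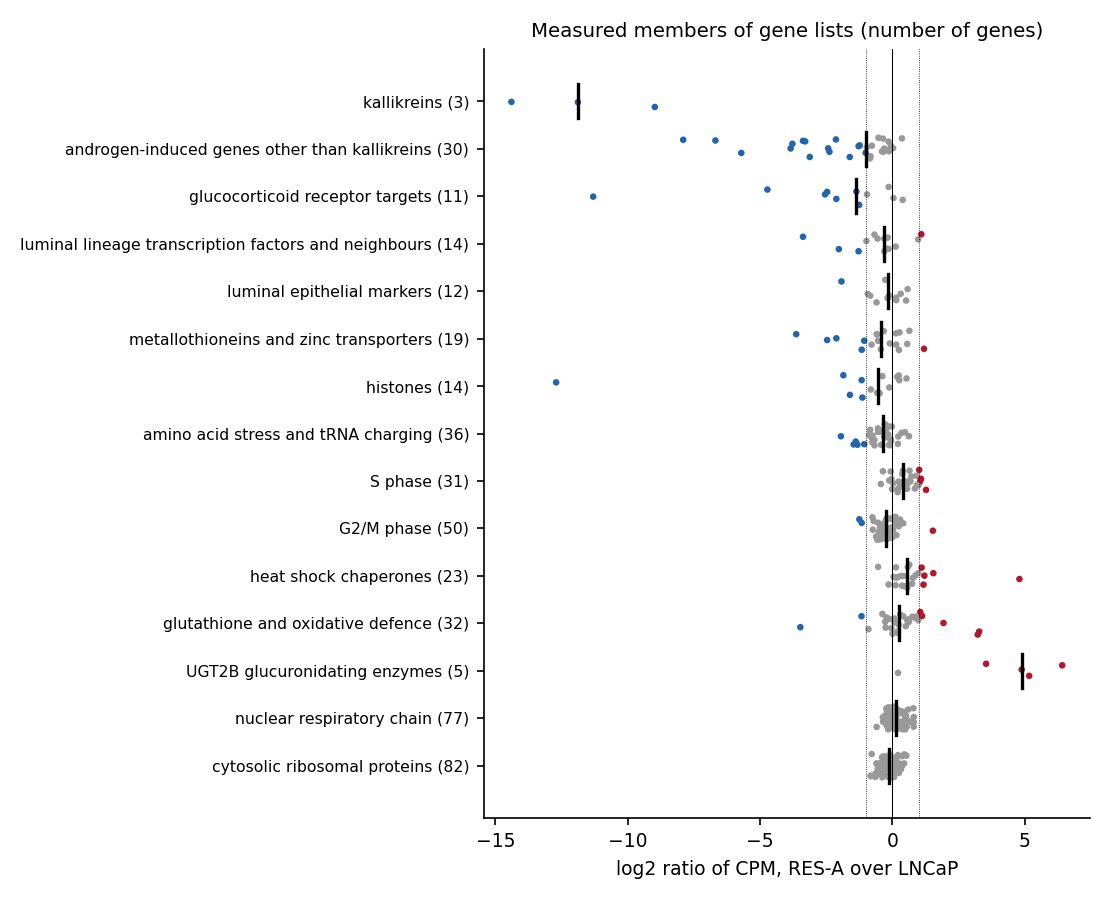
Log2 ratio of RES-A over LNCaP for each measured member of 15 gene lists, with the number of genes in brackets, the list median as a black bar and 2-fold as dotted lines. Blue points are at least 2-fold lower and red points at least 2-fold higher. The kallikreins and the UGT2B enzymes stand at the ends, while the 77 nuclear respiratory chain genes and the 82 ribosomal protein genes lie within 2-fold.

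Antioxidant genes leaned to the high side, with single exceptions. Of 32 measured genes of glutathione and oxidative defence 5 were at least 2-fold higher (15.6%, against 4.69% of all measured genes). At least 2-fold lower were 2 genes, 6.25%, near the 5.05% of all measured genes. A ratio above 0 was found for 23 genes and below 0 for 9, with a median of 0.27. The glutathione transferase GSTA1 had 16.4 CPM in LNCaP, 26.3 CPM in LNCaP-ENZ48, 26.7 CPM in RES-B and 154 CPM in RES-A, and GCLC, the catalytic subunit for glutathione synthesis, 8.92 and 34.1 CPM in LNCaP and RES-A. GSTA1 and GSTA2 are near-identical and share the uncertainty of split reads. HMOX1, the inducible heme oxygenase, had 100 CPM in LNCaP, 47.3 CPM in LNCaP-ENZ48, 14.6 CPM in RES-B and 9.0 CPM in RES-A, and the thioredoxin reductase TXNRD1 had 370 and 165 CPM. Genes of this defence that are often induced together, such as GCLC and HMOX1, were thus on opposite sides of the parental level.

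Most genes of amino acid stress and tRNA charging lay within 2-fold, and those past it were on the low side. Of 36 measured genes 5 were at least 2-fold lower (13.9%), 0 higher, 31 had a ratio below 0, and the median was -0.37. The cystine importer SLC7A11 had 173 CPM in LNCaP, 97.2 CPM in LNCaP-ENZ48, 69.0 CPM in RES-B and 45.0 CPM in RES-A. The alanyl-tRNA synthetase AARS had 129 and 46.9 CPM in LNCaP and RES-A, the stress factor ATF3 41.6 and 16.7 CPM, and the pseudokinase TRIB3 116.1 and 55.7 CPM. GDF15, a secreted cytokine of the same stress response and 1 of the 6 largest losses in CPM, had 3887 CPM in LNCaP, 2280 CPM in LNCaP-ENZ48, 288 CPM in RES-B and 322 CPM in RES-A. GDF15 was seen in 97.9% of LNCaP and 60.2% of RES-A thinned cells.

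The medians of the cell cycle lists lay on opposite sides of 0. Of 31 measured S-phase genes 4 were at least 2-fold higher (12.9%, against 4.69% of all measured genes) and 0 lower. Their median was 0.42, with 25 ratios above 0. Of 50 measured G2/M genes 1 was higher (2.0%) and 2 were lower (4.0%, against 5.05%), both shares below those of all measured genes. Their median was -0.24, with 38 ratios below 0. The replication clamp PCNA had 50.8 CPM in LNCaP and 123 CPM in RES-A, the helicase subunit MCM6 10.1 and 21.3 CPM, and GINS2 12.2 and 25.3 CPM. CDK1, the mitotic kinase, was the 1 G2/M gene at least 2-fold higher, with 76.9 CPM in LNCaP, 58.0 CPM in LNCaP-ENZ48, 102 CPM in RES-B and 222 CPM in RES-A. KIF23, a kinesin of cytokinesis, had 14.5 and 6.14 CPM and the centromeric histone CENPA 23.4 and 10.5 CPM. CDK1 was seen in 15.4% of LNCaP and 47.3% of RES-A thinned cells (45.8% to 48.7%).

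A histone list held variant histones and some genes of the HIST1 cluster. Of its 14 measured genes 5 were at least 2-fold lower (35.7%, against 5.05% of all measured genes) and 0 higher. Besides H2AFJ these were H1F0 (105 and 29.0 CPM in LNCaP and RES-A), the linker histone HIST1H1C (259 and 85.4 CPM), HIST1H2AC (28.1 and 12.8 CPM) and CENPA, and the list median was -0.53. CENPA was also counted among the G2/M genes. Among ETS factors 4 of 9 were lower (44.4%, against 5.05% of all measured genes), ETV1, EHF, SPDEF and ELK4 (36.4 and 11.2 CPM), and 0 were higher. EHF and SPDEF were already counted among the luminal transcription factors.

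Single members of other lists also stood apart by the size of their ratio. DDC, the aromatic amino acid decarboxylase, had 24.1 CPM in LNCaP, 68.3 CPM in LNCaP-ENZ48, 17.8 CPM in RES-B and 126 CPM in RES-A. SAT1, the enzyme that starts polyamine breakdown, had 361, 351, 83.9 and 73.5 CPM in the same order and S100P, a calcium-binding protein, 82.2, 54.0, 2.36 and 5.80 CPM. SAT1 and S100P were thus low in both resistant lines, and DDC was high in RES-A and after 48 h of drug. EGFR had 26.6 CPM in LNCaP and 5.63 CPM in RES-A and its inhibitor LRIG1 20.7 and 6.79 CPM. The apoptosis inducers BBC3 (24.3 and 7.62 CPM) and PMAIP1 (41.1 and 19.8 CPM) were the 2 of 14 measured BCL2-family genes past 2-fold. Both were lower (14.3%, against 5.05% of all measured genes).

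Imprinted genes showed no common direction, with 3 of 13 measured higher, 2 lower and a median of 0.16. Besides PEG3, SNRPN was lower (161 and 74.4 CPM in LNCaP and RES-A), while the retrotransposon-derived PEG10 (1.76 and 17.7 CPM), the growth factor adaptor GRB10 (42.3 and 102 CPM) and DDC were higher. Of 7 measured Wnt genes 0 passed 2-fold, of 17 measured G1 regulators 0 passed it, and of 10 measured genes of class I antigen presentation 0 passed it. Of 10 measured prostate cancer surface antigens 2 were at least 2-fold lower, STEAP2 (270 and 92.9 CPM) and SLC44A4 (10.5 and 2.15 CPM), and 1 was higher, PSCA (4.36 and 10.8 CPM). FOLH1, the prostate-specific membrane antigen, had 327 CPM in LNCaP, 527 CPM in LNCaP-ENZ48, 180 CPM in RES-B and 239 CPM in RES-A.

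In absolute terms the largest loss was in the nuclear RNA MALAT1, followed by GDF15 and RPLP1. MALAT1 had 30866 CPM in LNCaP, 43678 CPM in LNCaP-ENZ48, 19970 CPM in RES-B and 17344 CPM in RES-A, and NEAT1, the RNA scaffold of paraspeckles, had 2988, 3605, 1595 and 1061 CPM in the same order. Both nuclear RNAs were lower in both resistant lines and higher after 48 h of drug. The ribosomal protein genes RPLP1 (8865 and 5674 CPM in LNCaP and RES-A), RPL7A (7620 and 5843 CPM) and RPLP2 (4057 and 2363 CPM) were also among the 6 largest losses, each with a ratio within 2-fold. The largest gains were in MT-CO2 (12728 and 18171 CPM), MT-CO1 (15504 and 17370 CPM), MT-CYB (11000 and 12551 CPM), RPL13 (7119 and 10296 CPM), GAPDH (2783 and 5076 CPM) and HSP90AA1.

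The core machinery moved little. Of 77 nuclear genes of the respiratory chain all were measured and 0 passed 2-fold, with a median of 0.14 and 52 ratios above 0. The 82 measured cytosolic ribosomal protein genes, a list added after the values were seen, held 0 past 2-fold and had a median of -0.14, and their summed level was 326038 CPM in LNCaP and 299354 CPM in RES-A. Other scalings of the library totals moved all log2 ratios by -0.05 (TMM) and -0.01 (median of ratios).

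**Figure D5:**
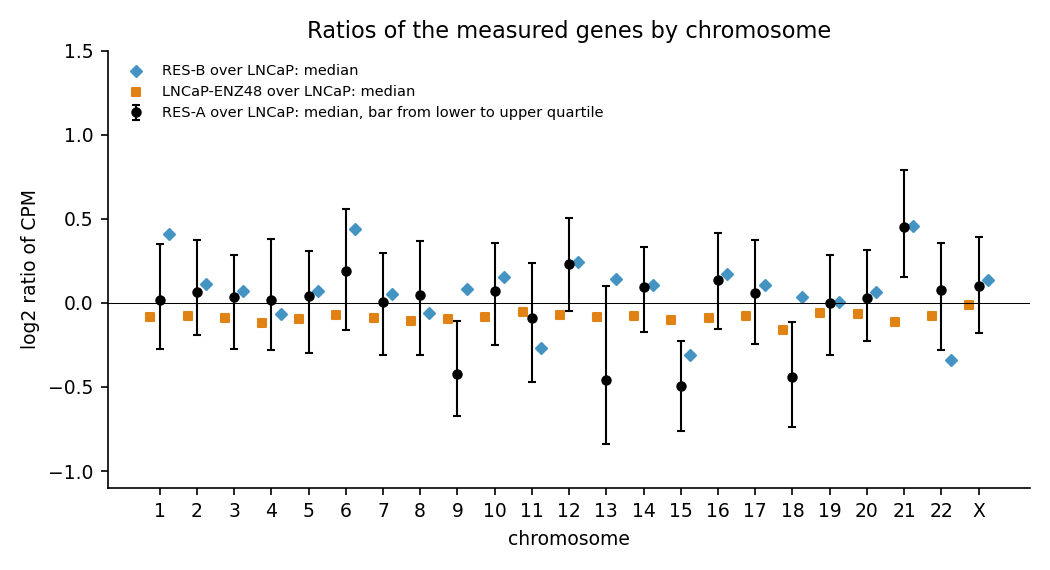
Median log2 ratio of the measured genes on each chromosome, with bars from the lower to the upper quartile for RES-A over LNCaP (black) and medians for RES-B (blue) and LNCaP-ENZ48 (orange) over the same LNCaP library. In RES-A chromosomes 9, 13, 15 and 18 lie lowest and chromosome 21 highest, while the medians of LNCaP-ENZ48 stay between -0.16 and -0.01.

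The ratios differed by chromosome. The median log2 ratio was -0.49 over 256 measured genes of chromosome 15, -0.46 over 125 genes of chromosome 13, -0.44 over 119 genes of chromosome 18 and -0.43 over 315 genes of chromosome 9, beside 0.02 over all genes. On chromosome 15, 223 of 256 genes (87.1%) had a ratio below 0. Chromosome 21 was highest, with a median of 0.45 over 87 genes, 10 of them below 0. A run of 52 measured genes on chromosome 6, chr6:41921499-73525587, had a median of 0.54 with 5 genes below 0. The last run of chromosome 15 had -0.76. RES-B over LNCaP gave 0.90 for the chromosome 6 run and -0.40 for the chromosome 15 run. The chromosome 6 rise was thus not particular to RES-A. Over whole chromosomes, the RES-B medians were -0.31 on chromosome 15, 0.14 on chromosome 13 and 0.03 on chromosome 18. They were 0.08 on chromosome 9 and 0.46 on chromosome 21. For LNCaP-ENZ48 no chromosome had a median below -0.16 or above -0.01. Several genes named above lie on these chromosomes, TJP1, ALDH1A3 and SNRPN on chromosome 15, PRUNE2 on chromosome 9, SYT4 on chromosome 18 and ABCC4 on chromosome 13, and their ratios are against the whole library and not against their chromosome. The copy number of these chromosomes was not measured here, and its part in the medians was not tested.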

How the data were processed

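Sorted living cells of 4 libraries were sequenced by the 10x 3′ method, and the authors deposited filtered matrices of UMI counts per gene and barcode, made with Cell Ranger 3.0.2 on GRCh38 per the submitters' processing notes. Counts were used as deposited, from 33538 genes, of which 33113 were placed by gene ID in GENCODE 44. Cells were filtered as the report states, counts were summed per library and scaled to CPM, and genes of chromosome Y, XIST and TSIX were left out of all gene counts. Doublets were not removed and no caller was run. The study's own limits, applied per library, keep 1782 LNCaP and 4569 RES-A cells. The study's test over cells was not used, since cells are not replicates.

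The totals, 55696198 UMIs in LNCaP and 58657527 in RES-A, put the floor of 3 UMIs at 0.0539 CPM in LNCaP and 0.0511 CPM in RES-A. A count of 0 was set to the floor, and intervals are at the 95% level and cover counting error only. The ratio and interval code was tested on simulated data. Named genes were the 12 highest and 12 lowest log2 ratios among genes that reached 50 CPM in LNCaP or RES-A and kept their sign under each cell filter, the 6 largest gains and losses in CPM, and members of the gene lists, first up to 6 a list with the largest ratios. The comparison, the lists and this rule were chosen with earlier results of these data known. Alternatives were other cell filters, cells thinned to 5000 UMIs, TMM scaling (edgeR 4.0.16, R 4.3.3), median-of-ratios scaling and CPM minimums of 1 and 50. Python 3.11.15, scipy 1.17.1 and pandas 2.3.3 were used. Results for 1 listed gene are not reported here.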

Additional observations from a re-analysis of the deposited data

Results flagged for a closer look

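ASPH, the aspartyl beta-hydroxylase, moved in opposite directions in the resistant lines against the shared LNCaP library, with log2 ratios of 3.64 for RES-A but -1.03 for RES-B. It was the one gene among the 36 named by ratio or CPM difference that was at least 2-fold higher in 1 resistant line and at least 2-fold lower in the other. The difference was not tested, since each line is 1 library.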

How the results depend on the processing

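No paired analysis was possible because each group has 1 library. Under other cell filters, cells thinned to 5000 UMIs, both scalings and folds taken from the nearer interval bound, the number of genes at least 2-fold higher stayed within 1.5 times of 374 (309 to 384) and of those lower within 1.5 times of 403 (326 to 436). It changed with the CPM minimum, to 1242 higher and 996 lower at 1 CPM and 115 and 128 at 50 CPM, with more and fewer genes measured. At 50 CPM the members past 2-fold were 7 lower among androgen-induced genes, 3 among histones, 3 among amino acid stress genes and 3 among glucocorticoid receptor targets, and 2 higher among UGT2B enzymes, 1 among S-phase genes, 3 among chaperones and 3 among antioxidant genes. In thinned cells 7 S-phase genes were higher. Among lists whose main median was at least 2-fold from LNCaP, the median turned sign for 3. These were basal markers (-1.06 to 0.33) and mesenchymal markers (1.64 to -0.23) at 1 CPM and EGFR family genes (-1.25 to 0.26) at 50 CPM. Lists with smaller medians were not screened for a turn of sign. Of 253 named genes 0 of those past 2-fold changed direction under any filter or scaling, and 13 moved over 1.5-fold in thinned cells, where IGFBP5 came to 10.08 because its 1 parental UMI was not drawn. TMM shifted every log2 ratio by -0.05. The 5 most shifted chromosome medians kept their sign. Depth limits genes under the floor, and 1 library a side leaves the spread between cultures unknown.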

Other observations

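Genes past 2-fold lay beside each other more often than their overall share, a pattern noted after the values were seen. Of 372 genes at least 2-fold higher with a next measured gene on the same chromosome, 56 (15.1%) were followed by another that was at least 2-fold higher, beside 4.69% of all measured genes, and of 399 lower genes 67 (16.8%) by another lower one, beside 5.05%. Among the genes with the most extreme ratios, some near neighbours are near-copies, such as UGT2B15 and UGT2B11 or MT2A, MT1G and MT1X. Such neighbours were chosen by distance and need not be next measured genes, so they are not examples of the counts above. UGT2B15 and UGT2B11, for instance, lie 529.3 kb apart. Other neighbours chosen in this way are unlike genes. C19orf48, the low gene near KLK3, is 1 of these. ATG3, a conjugating enzyme of autophagy 34.8 kb from CCDC80, had 47.8 and 260 CPM, and the phospholipid enzyme CHPT1 had 161 and 911 CPM beside GNPTAB, a lysosomal enzyme targeting gene 1.4 kb away, with 23.3 and 78.0 CPM. SEMA3C, a secreted guidance protein 516.4 kb from GNAI1, had 6.61 and 54.1 CPM. The median ratio of the 50 measured genes around each of these pairs lay between -0.11 and 0.27. These pairs were chosen after their values were seen, and no test was run.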
